A study of Homo sapiens with 3 samples.

Results

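Ribosome peaks in the last exon of multi-exon transcripts were examined in 3 lists of ribosome peaks, 1 from each library. A peak belonged to this class when its annotation read exon and gave exon N of N with N of 2 or more, so the class depended on position alone. In all, 3590 of 46819 listed peaks met the rule, with 974 of 11219 in the vector list, 1735 of 19920 in the wild-type list and 881 of 15680 in the G325E list. They lay in 676 genes. Peaks in transcripts of a single exon (331 in vector, 438 in the wild-type list and 548 in G325E) were outside the class.

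The libraries came from ribosome profiling, in which the mRNA fragments covered by ribosomes are sequenced, of HEK293T cells, an established human embryonic kidney line. Cells were transiently transfected for 24 h with empty pCDNA3.1 vector or with a FLAG-tagged DDX3X construct, either wild-type or with the G325E substitution. All groups received the same drugs. The labels state harringtonine at 2 µg/ml for 90 s and then cycloheximide at 100 µg/ml, whereas the study's methods name cycloheximide alone. HEK293T cells keep their own DDX3X gene, so both DDX3X groups are overexpression models. Each construct had 1 library, and no difference below could be set against the spread between cultures. Intervals are 95% intervals for counting error only, and they treat peaks as independent although peaks of 1 gene are not.

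DDX3X, of the DEAD-box family of RNA helicases, acts on structured mRNA during translation initiation. An elongating ribosome reaches the last exon near the end of its run, since most human stop codons lie there. Termination at the stop codon is slow relative to a typical elongation step, and ribosomes often accumulate over it. Harringtonine holds ribosomes at start codons while those already elongating run on toward the stop codon, and cycloheximide arrests elongating ribosomes where they stand.

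The ends of the coding sequences whose stop codon lay under a last-exon peak in all 3 lists show what such a peak covers. For 7 of these 46 genes, all among those with the most last-exon peaks, the ends are given below (GRCh37, 5′ to 3′ on the strand of the gene). Each run holds the last 27 coding bases in lower case and the stop codon in capitals.
TUBB (chr6:30692145-30692174, plus strand): ttcggtgaggaggccgaagaggaggccTAA
TUBB2B (chr6:3224985-3225014, minus strand): gaggaggaggagggcgaggacgaggcgTAG
YWHAG (chr7:75958894-75958923, minus strand): gacgacgatggcggcgaaggcaacaatTAA
MARCKSL1 (chr1:32800198-32800227, minus strand): acaccagccagcgctgagcagaatgagTAG
MYBBP1A (chr17:4442710-4442739, minus strand): gcacaggtgaggaaggcagggaagcccTGA
TK1 (chr17:76170840-76170869, minus strand): cagattctgcaatgcagccctgccaacTGA
CKB (chr14:103986201-103986230, minus strand): atcgacgacctcatgcctgcccagaaaTGA

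TUBB and TUBB2B encode β-tubulins and end in runs of glutamate codons (gag and gaa). YWHAG encodes a 14-3-3 protein, MARCKSL1 an actin-binding MARCKS relative, MYBBP1A a nucleolar protein, TK1 thymidine kinase and CKB brain-type creatine kinase. At TUBB2B the peak over the stop codon was 93 bp long in vector, 93 bp in the wild-type list and 93 bp in G325E. At MARCKSL1 it was 240, 238 and 238 bp, and at TK1 29, 36 and 29 bp. YWHAG differed, with 228 bp in vector and 224 bp in wild-type against 94 bp in G325E.

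DDX3X, the gene that the constructs carry, has a last exon with 77 coding nt. It held 0 last-exon peaks in vector, 2 in the wild-type list and 0 in G325E, against 0, 32 and 9 peaks of any class. The label calls the cells neuronal, whereas the study names HEK293T cells. Of 13 neuronal markers, 3 (NEFL, NEFM and TUBB3) had a peak in each list and the others had no peak in any list. Of the other markers, 0 of 10 kidney epithelial, 0 of 4 blood and 0 of 1 liver had a peak. Read depth at each peak is not in the files. By the study's supplement, non-duplicated mapped reads were most in wild-type, fewer in vector and fewest in G325E, and peak calling used a fixed coverage cut-off. The numbers of last-exon peaks and of their genes ran in the same order as these reads. The totals of all peaks did not, as G325E had more than vector. The part of depth in the results was not tested. Peak numbers ran with gaps in vector (14.8% of numbers missing) and wild-type (13.5%) and without a gap in G325E. The smallest share of last-exon peaks that 3 peaks can show was 0.308% in vector, 0.173% in the wild-type list and 0.341% in G325E.

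To ask how much of each list lay at the 3′ end of coding sequences, the last-exon share was computed. Of all peaks, last exons held 8.68% in vector (8.17 to 9.22), 8.71% in the wild-type list (8.33 to 9.11) and 5.62% in G325E (5.27 to 5.99). The G325E share differed from wild-type by −3.09 percentage points (Newcombe interval −3.62 to −2.56) and from vector by −3.06 (−3.70 to −2.43). Wild-type and vector differed by 0.0281 points (−0.630 to 0.674).

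Among exon-class peaks of multi-exon transcripts the last-exon share was nearly level. It was 18.7% in vector (974 of 5219), 17.6% in the wild-type list (1735 of 9839) and 17.5% in G325E (881 of 5027). The difference of G325E from wild-type was −0.109 points (−1.39 to 1.20) and from vector −1.14 points (−2.63 to 0.355), and both intervals include 0. The first exon took 33.2% of these peaks in G325E against 11.7% in wild-type and 12.7% in vector. Internal exons took 49.3% in G325E against 70.6% and 68.6%. The lower number of internal peaks in G325E thus stood beside more first-exon peaks, with the last-exon share between them little moved.

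**Figure D1:**
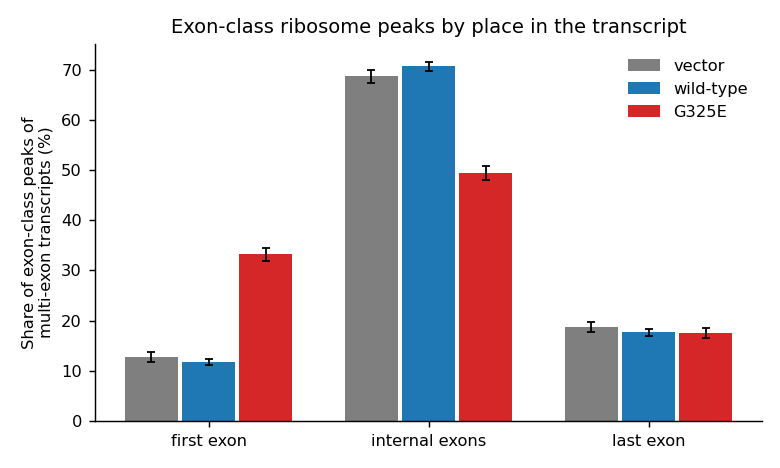
Bars give the share (%) of exon-class peaks of multi-exon transcripts in first, internal and last exons for each list, and lines the 95% Wilson interval. The last-exon bars lie between 17.5 and 18.7%, whereas the G325E list has 33.2% in first exons and 49.3% in internal exons.

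That near-level share depended on which genes were counted and how. In the 751 genes with an exon-class peak in every list, last exons held 17.9% in vector (16.6 to 19.2), 15.7% in the wild-type list (14.7 to 16.8) and 19.3% in G325E (18.0 to 20.7), so that G325E was above wild-type. With each gene weighted equally, the difference of G325E from wild-type was −5.10 points. Within peaks of under 50% GC the last-exon share was 17.8, 17.6 and 18.1% in vector, wild-type and G325E, and within peaks of 70% GC or more it was 16.5, 17.8 and 16.3%.

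Last exons made up 10.8% of the coding sequence of the 2209 genes of at least 3 exons that had an exon-class peak. Per kb of coding sequence they carried 1.92 peaks in vector (1.79 to 2.06), 3.50 in the wild-type list (3.31 to 3.68) and 1.65 in G325E (1.53 to 1.78). Internal exons of the same genes carried 1.15, 2.26 and 0.800 peaks per kb. Last exons were denser than internal exons in every list, by a ratio of 1.67 in vector, 1.55 in the wild-type list and 2.07 in G325E.

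The rule kept exon-class peaks only, so peaks annotated to the 3′ UTR or to the transcription termination site were left out. Within the class kept, G325E differed in where along the last exon the peaks lay. The median distance from the midpoint of a last-exon peak to the stop codon was 140 nt in vector (127 to 156), 152 nt in the wild-type list (141 to 165) and 221.5 nt in G325E (195 to 253). Peaks with a midpoint within 100 nt before the stop codon made up 38.4% in vector, 36.2% in the wild-type list and 27.1% in G325E. Peaks in the first 100 nt of the last exon were also fewer in G325E, with 42.2%, 39.7% and 31.9%. The genes differed as well. The median length of coding sequence in the last exon was 155.5 nt for genes with a last-exon peak in vector, 161 nt in the wild-type list and 195 nt in G325E. As a fraction of that length the median position was 0.523, 0.506 and 0.499, and the share in each of 5 equal segments gave differences between lists whose intervals included 0. The longer distance to the stop codon in G325E was thus accompanied by longer last exons.

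Peaks that covered the stop codon itself were less common in G325E. They made up 14.9% of placed last-exon peaks in vector (142 of 955), 14.1% in the wild-type list (237 of 1686) and 7.97% in G325E (69 of 866). Peaks over the stop codon that were annotated to another class, such as the 3′ UTR, were not counted. The difference of G325E from wild-type was −6.09 points (−8.47 to −3.55) and from vector −6.90 points (−9.80 to −3.99). No gene had more than 1 peak over the stop codon in a list, so a gene with many last-exon peaks lowers this share. Counted by gene, such a peak lay in 142 of 367 genes in vector, 237 of 617 in the wild-type list and 69 of 251 in G325E. In the 173 genes with a last-exon peak in all 3 lists, the stop codon was covered in 68 genes in vector (39.3%), 72 in the wild-type list (41.6%) and 50 in G325E (28.9%). The difference of G325E over these genes was −12.7 points from wild-type (−22.4 to −2.65) and −10.4 points from vector (−20.1 to −0.416). These intervals treat the lists as independent, although the same genes were scored in each. In all 4 classes of GC content the G325E share of peaks over the stop codon was the lowest, from 7.79% against 17.3% and 16.3% under 50% GC to 5.38% against 10.1% and 7.69% at 70% GC or more. The difference of G325E from wild-type was −8.50 points under 50% GC (−14.1 to 0.259) and −7.75 at 50 to under 60% (−12.6 to −1.94), against −1.87 at 60 to under 70% (−6.64 to 3.43) and −2.31 at 70% or more (−6.37 to 1.505). From vector it was −9.46 (−16.3 to −0.188), −7.24 (−12.9 to −1.03), −2.98 (−8.68 to 2.79) and −4.74 (−10.7 to 0.0156) in the same order. Whether the difference varied between GC classes was not tested.

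**Figure D2:**
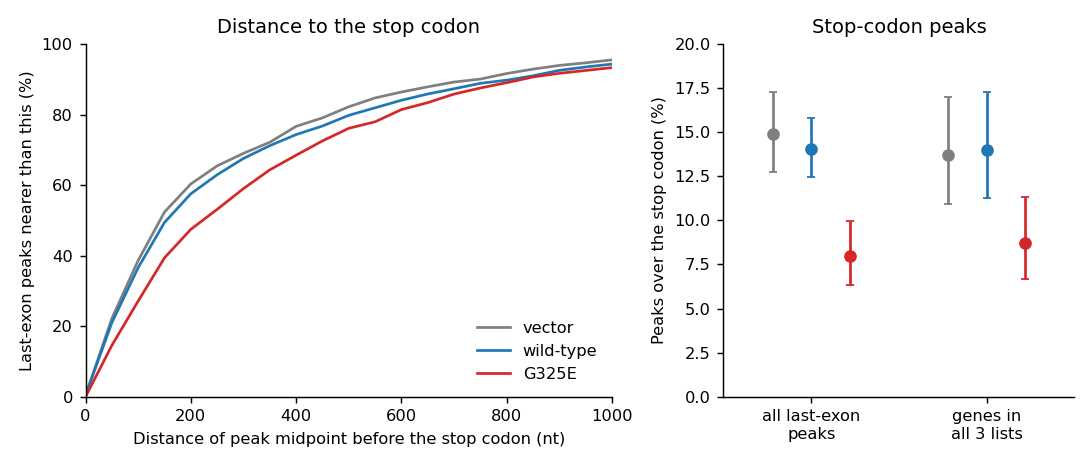
Left, the cumulative share (%) of last-exon peaks by distance of the midpoint before the stop codon (nt) in each list. Right, the share (%) of last-exon peaks over the stop codon with 95% Wilson intervals, for all placed peaks and for the 173 genes in all 3 lists, where G325E is the lowest in both.

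Last-exon peaks of G325E lay in GC-rich sequence. GC content in the 31 nt around the midpoint was 57.9% ± 11.7 (SD, n = 974 peaks) in vector, 57.5% ± 12.3 (SD, n = 1735) in wild-type and 66.4% ± 12.6 (SD, n = 881) in G325E. Peaks of 70% GC or more made up 16.5%, 17.8% and 41.1%. First-exon and internal peaks also had a higher mean GC content in G325E than in the other lists. In the 173 genes with a last-exon peak in every list, the mean was 62.1% in vector, 61.7% in the wild-type list and 63.9% in G325E, so the lists lay closer within the same genes. Median peak length was 41, 41 and 40 bp. The part of GC content in the results above and below was not tested further than by the GC classes given.

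**Figure D3:**
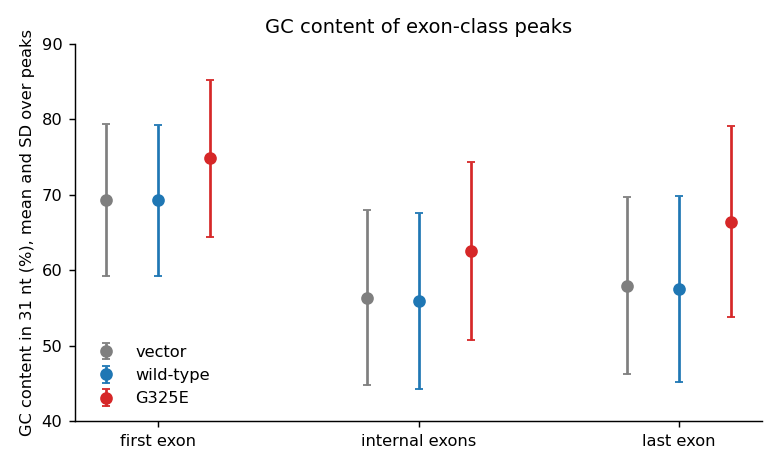
Mean GC content (%) in 31 nt around the peak midpoint, with the SD over peaks, for first, internal and last exons in each list. The axis starts at 40%. Last-exon peaks average 66.4% in G325E against 57.9% in vector and 57.5% in wild-type.

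Most last-exon peaks lay in genes with coding sequence in earlier exons as well. A minority lay in last exons that held a whole reading frame. The start and stop codon both lay in the last exon for 16.0% of last-exon peaks in vector, 14.1% in the wild-type list and 14.8% in G325E. Last exons with 50% or more but not all of the coding sequence gave 25.2%, 25.6% and 33.0%, a difference of 7.41 points for G325E from wild-type (3.71 to 11.2). Transcripts of 11 or more exons gave 15.3%, 21.4% and 14.5%, where wild-type was above vector by 6.14 points (3.11 to 9.06). Most peaks lay on the strand of their gene, with 96.7% in vector, 97.0% in the wild-type list and 94.9% in G325E.

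Peaks were called in each library separately, so overlap by at least 1 bp on the same strand shows how many were found again. Of G325E last-exon peaks, 66.2% overlapped a wild-type peak, against 45.7% of all G325E peaks, and 53.5% overlapped a vector peak, against 34.3%. Of vector last-exon peaks, 87.4% overlapped a wild-type peak, against 75.1% of all vector peaks, and 45.6% a G325E peak, against 46.4%. Of wild-type last-exon peaks, 46.9% overlapped a vector peak, against 40.7% of all, and 29.9% a G325E peak, against 33.6%. Internal-exon peaks of G325E overlapped more often still, with 77% in wild-type and 61.3% in vector. Last-exon peaks of G325E were thus recovered more often than its peaks of all classes together and less often than its internal-exon peaks. Of the 578 G325E last-exon peaks that overlapped a wild-type last-exon peak, 49.5% shared the exact start or the exact end.

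The genes behind these peaks were fewer in G325E, the library with the fewest non-duplicated mapped reads. The wild-type library had the most reads. Last-exon peaks lay in 367 genes in vector, 617 in the wild-type list and 251 in G325E, and 62 genes had 5 or more in G325E against 97 in wild-type and 46 in vector. Of the 676 genes, 173 were in all 3 lists and 174 in vector and wild-type only. A further 235 were in wild-type alone, 39 in G325E alone and 16 in vector alone. The 174 genes lacking in G325E had a median last-exon coding length of 132.5 nt and a median GC content of 51.6%, against 170.5 nt and 61.3% for the 173 shared genes and 275 nt and 72.0% for the 39 G325E genes. In the 208 genes with last-exon peaks in both G325E and wild-type, G325E had more in 70, the same number in 97 and fewer in 41.

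Before scaling, 310 genes had at least 3 last-exon peaks summed over G325E and wild-type. After scaling to the same total of peaks, 57 of these were at least 2-fold higher in G325E (over all peaks per gene, 26.3% were called). A further 134 were at least 2-fold lower (34.6% over all peaks per gene). Of the 134, 132 had no last-exon peak in G325E, and over all peaks per gene 885 of the 1085 called lower had none. Against vector, 50 of 222 genes were at least 2-fold higher in G325E (36.4% over all peaks per gene) and 75 lower (26.1%). Of the 75, 53 were at 0, against 357 of 668 over all peaks per gene. In wild-type against vector, genes with at least 3 last-exon peaks summed over that pair were counted. Of these, 102 were higher (33.5% over all peaks per gene) and 63 lower (17.1%). As shares of the genes counted, both numbers lay close to the shares over all peaks per gene. Of the 102, 98 were at 0 in vector, against 813 of 918 over all peaks per gene. Both comparisons with vector share the vector library. Genes called lower in G325E mostly held none of the peaks counted there, whether last-exon peaks or peaks of any class. These are unlike measures, since a gene with no last-exon peak can still hold peaks of other classes.

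Genes with 8 or more last-exon peaks, a limit chosen after the counts were seen, were then described. Of the 37 genes with 8 or more last-exon peaks in wild-type, 20 had 0 in G325E, 0 had 1 to 3, and 17 had 4 or more. Over peaks of any class, 25.2% of genes with 8 or more in wild-type had none in G325E. Of the 29 genes with 8 or more in G325E, 5 had 0 in wild-type (21.7% over all classes), 2 had 1 to 3 and 22 had 4 or more. Of the 22 such genes in vector, 10 had 0 in G325E (16% over all classes) and 0 had 0 in wild-type (2.31%). Of the 37 in wild-type, 14 had 0 in vector (23.5% over all classes), and of the 29 in G325E, 10 had 0 in vector (35.8%). The shares over all classes are an unlike measure, since they count genes with no peak of any class. By that measure, 15 of the 20 wild-type and 6 of the 10 vector genes at 0 in G325E had none there. In wild-type, 4 of the 5 G325E genes had none. In vector, 13 of the 14 wild-type and 10 of the 10 G325E genes had none. The 20 wild-type genes at 0 in G325E had a median GC content of 55.1%, against 62.0% for the 17 that were present.

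**Figure D4:**
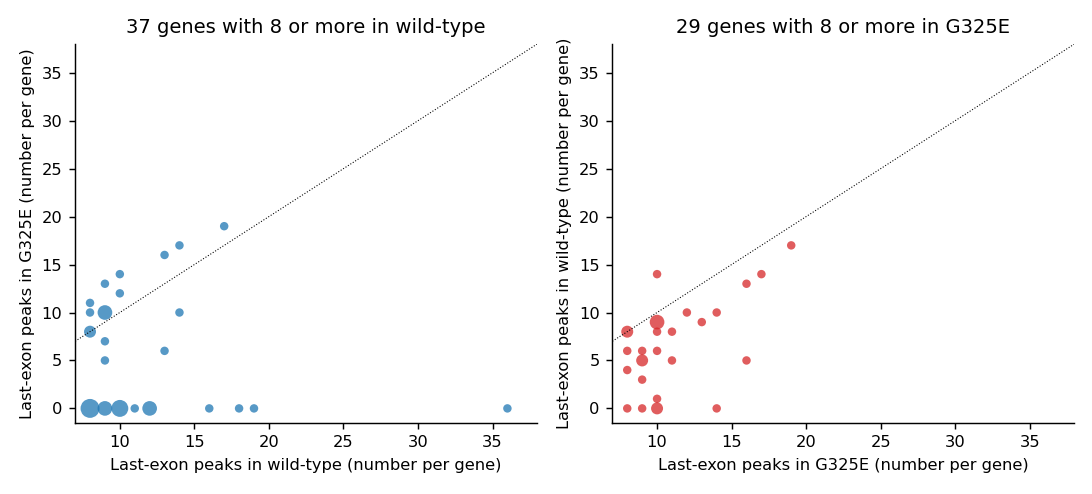
Each point is a gene with 8 or more last-exon peaks in wild-type (left, 37 genes) or G325E (right, 29 genes), placed by its number of last-exon peaks in that list and in the other, with a larger point where genes coincide. The dotted line marks equal numbers. On the left, 20 genes lie at 0 in G325E and none between 1 and 3.

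Of those 20 genes, 15 had no peak of any class in G325E. The G325E list is numbered without a gap, so its numbers cannot show whether rows were removed before numbering. The 15 include DAG1 (dystroglycan, 0 in vector, 19 in the wild-type list and 0 in G325E) and HNRNPF (an RNA-binding hnRNP, 0, 18 and 0). CREBBP, a histone acetyltransferase gene, had 0, 11 and 0 last-exon peaks but 7 peaks of other classes in G325E. HSPA5, the chaperone BiP of the endoplasmic reticulum, had 8 last-exon peaks in vector, 8 in the wild-type list and 0 in G325E, yet 23, 28 and 8 peaks of any class. DAG1 and CREBBP were named after their values were seen.

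Among the genes with the most last-exon peaks in vector and wild-type and 0 in G325E were TUBA1B, RBMXL1, FEN1 and POLR1G. TUBA1B, an α-tubulin, had 12 last-exon peaks in vector, 16 in the wild-type list and 0 in G325E. RBMXL1, a retrogene related to the RNA-binding protein gene RBMX, had 12, 12 and 0. FEN1, the flap endonuclease of DNA replication and repair, had 11, 10 and 0. POLR1G, a subunit of RNA polymerase I, had 11, 10 and 0. All 4 had 0 peaks of any class in G325E. TUBA1B (near-identical α-tubulin genes) and RBMXL1 (a copy of RBMX) share sequence with other sites, so their counts are uncertain, as are those of the other tubulin genes. The 30 bases at the centre of the longest last-exon peak of RBMXL1, FEN1 and POLR1G are shown (GRCh37, 5′ to 3′ on the strand of the gene), with each CG in capitals, to set their base composition beside that of the genes found in G325E alone.
RBMXL1 (chr1:89449046-89449075, minus strand): accactcccagtaaaaagaggaccaccacc
FEN1 (chr11:61563134-61563163, plus strand): agtgagCGgCGggctgaggcagagaagcag
POLR1G (chr19:45912038-45912067, plus strand): aggaacagattaacactgagcctctagaag

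The 5 genes with the most last-exon peaks in G325E among those at 0 in both other lists were SP9, SKIDA1, SLITRK5, MTSS2 and HIC1. SP9, an Sp-family transcription factor, had 14 in G325E. SKIDA1 had 10, SLITRK5, a neuronal transmembrane protein gene, had 10, MTSS2 had 9 and HIC1, a zinc finger transcriptional repressor, had 8. Of these peaks, 3 of 8 in HIC1, 3 of 10 in SKIDA1, 1 of 10 in SLITRK5, 1 of 14 in SP9 and 0 of 9 in MTSS2 lay antisense to the gene. MTSS2 had 7 peaks of other classes in wild-type, and the other 4 genes had none of any class in vector or wild-type. Their peaks averaged from 71.3% GC in SLITRK5 to 85.9% in HIC1, against 53.2% in RBMXL1 and 57.5% in FEN1. The lists that lack SP9, SKIDA1 and SLITRK5 skip 1 to 5 peak numbers there, and the vector list skips 2 at MTSS2, so rows may be missing at these genes, whereas 0 numbers are skipped at HIC1. The same windows for these genes hold from 2 to 8 CG pairs, against 0 to 2 in the 3 windows above.
SP9 (chr2:175202086-175202115, plus strand): gacagtgacaCGgaCGccagcaacctggag
SKIDA1 (chr10:21805951-21805980, minus strand): gCGgCGggCGcCGgaggccCGgggagcctg
SLITRK5 (chr13:88330054-88330083, plus strand): agccacagcagcagccccCGcCGcagctgc
MTSS2 (chr16:70697843-70697872, minus strand): aggcagcCGggtacccCGgggcaggggcCG
HIC1 (chr17:1960402-1960431, plus strand): CGgggCGgCGgCGgCGgCGgCGgCGgctac

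The genes with the most last-exon peaks over the 3 lists included 9 that were level or higher in G325E. ZNF503, a zinc finger transcriptional repressor, had 15 in vector, 17 in the wild-type list and 19 in G325E. TUBB4A, a further β-tubulin, had 16, 14 and 17, and TUBB had 14, 13 and 16. LRATD2 had 10, 9 and 10, and ZNF703, a zinc finger corepressor, had 10, 9 and 10. ZFHX3, a zinc finger homeobox transcription factor, had 5, 10 and 14, and SP8, another Sp-family factor, had 7, 8 and 11. TRAPPC5, a subunit of the TRAPP vesicle tethering complexes, had 9, 5 and 11. NEFM, the medium neurofilament subunit, had 5 in vector, 5 in the wild-type list and 16 in G325E. The median distance of its peaks to the stop codon was 169, 168 and 786.5 nt, so on median the G325E peaks lay further upstream in the same exon. TUBA1A had 6, 13 and 6, and TUBA1B was at 0 in G325E. Over the 3 lists, 9 of 29 ZFHX3 peaks, 7 of 47 TUBB4A peaks and 6 of 26 SP8 peaks lay antisense to the gene.

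**Figure D5:**
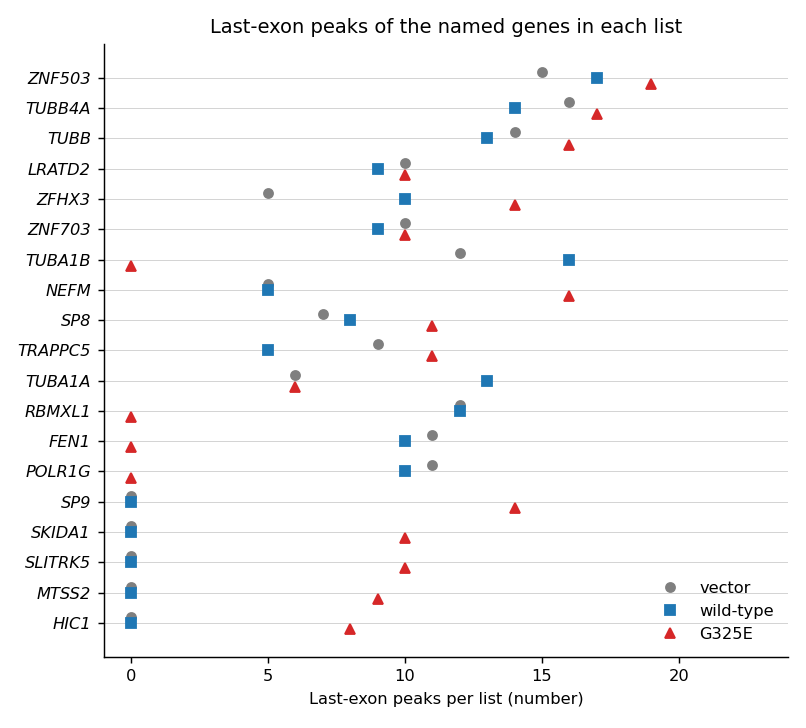
Number of last-exon peaks per list for the genes with the most in all and for those at 0 in G325E or found in G325E alone, 1 symbol per list. TUBA1B has 12, 16 and 0 in vector, wild-type and G325E, and SP9 has 0, 0 and 14.

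Gene groups were described by their counts, from lists that do not hold every gene of each group. Of 3754 genes with any peak, 18.0% had a last-exon peak. Of 11 tubulin and actin genes, 10 did, with 70 last-exon peaks in vector, 87 in the wild-type list and 60 in G325E. These were 76.9%, 74.4% and 70.6% of the group's exon-class peaks, against 18.7, 17.6 and 17.5% over all genes. Listed C2H2 zinc finger genes had 25, 69 and 64 (13 of 28 genes), with 58.1%, 54.8% and 73.6% in the last exon. The zinc fingers of such proteins are often encoded there. This list left out zinc finger genes such as SP8 and ZFHX3, whose counts are given above. Last-exon peaks of the listed genes lay in 2 genes in vector (ZNF503 with 15 and ZNF703 with 10), 11 in the wild-type list and 7 in G325E. The shares thus rest on few genes. Listed homeobox, SOX and FOX transcription factor genes, without ZFHX3, had 20, 37 and 27 (11 of 49 genes). Their last-exon share was 57.1% of 35 exon-class peaks, 46.2% of 80 and 20.6% of 131. The lower share in G325E thus stood on more exon-class peaks, with last-exon numbers that were not the lowest. In ZFHX3, outside the list, last exons held 5 of 5, 10 of 15 and 14 of 16 exon-class peaks.

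Cytosolic ribosomal protein genes had 39 last-exon peaks in vector, 40 in the wild-type list and 34 in G325E (26 of 72 genes), 14.0%, 14.5% and 17.2% of their exon-class peaks. RPL15 had 3, 3 and 3, RPL29 had 3, 2 and 4, and RPL36AL had 4, 5 and 0. Translation factor genes had 14, 18 and 4 (12 of 45 genes), or 8%, 6.84% and 3.64% of exon-class peaks. EEF2, the elongation factor of ribosome translocation, had 2, 2 and 2, while EIF3A had 3, 2 and 0 and EIF4H 3, 2 and 0. Heat shock protein and chaperonin genes had 21, 29 and 10 (11 of 35 genes), or 17.9%, 15.3% and 25% of exon-class peaks, and HSPB1 had 3, 3 and 3. Listed genes of hnRNP and SR splicing proteins had 17, 63 and 19 (14 of 35 genes), or 15.3%, 31.3% and 21.8%. HNRNPF held 18 of the 63, while HNRNPR had 7, 6 and 7 and SRSF5 had 4, 4 and 5. This list left out SYNCRIP, also an hnRNP gene, with 6, 8 and 10. DEAD/DEAH-box helicase genes had 6, 12 and 6 (7 of 25 genes), or 27.3%, 11.1% and 19.4%, with DDX24 at 3, 4 and 3. Glycolytic enzyme genes had 7, 5 and 2 (4 of 10 genes), or 15.2%, 5.56% and 5.13%. Solute carrier genes had 7, 11 and 2 (5 of 42 genes), or 17.1%, 15.1% and 3.12%.

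The other genes taken from the study had few last-exon peaks. SET, a histone chaperone, had 1 in vector, 1 in the wild-type list and 0 in G325E, and EEF1A1, which delivers aminoacyl-tRNA to the ribosome, had 1, 1 and 0. PNN, which takes part in splicing, had 0, 4 and 0. HELLS, RACK1 (GNB2L1) and HNRNPA2B1 had 0 in each list. The coding sequence in the last exon was 21 nt in SET, 63 nt in RACK1, 92 nt in HELLS and 1358 nt in PNN. In HNRNPA2B1 it was 0 nt, so no coding peak could lie there in that gene model.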

How the data were processed

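Ribosome profiling was carried out in HEK293T cells transfected with vector alone, DDX3X wild-type or its G325E mutant (1 library each, groups taken from sample titles). The deposited files were peak lists, 1 per sample, with position, strand and annotated region, and with no height, count or score. Per the labels, the authors used cutadapt and BWA 0.5.5 with build hg19. Per the study's methods, duplicates were removed, peaks were called on base coverage, merged and reviewed by eye, and the layout is that of HOMER. Counts of peaks are therefore not read depth, and a peak can be present or absent with small changes in coverage. HOMER assigns peaks near transcript ends to a TTS class first, so 30, 43 and 21 such peaks inside last-exon coding sequence (vector, wild-type, G325E) were outside the class and were added only as an alternative. Its exon class was taken as coding sequence.

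Peaks were placed by midpoint on GENCODE release 44 canonical transcripts on GRCh37 (equivalent to hg19, 0 peaks beyond a chromosome end). Of 685 transcripts, 676 were named by a RefSeq table (GRCh38, names only), 3 by pairing in the files, and 6 (19 peaks) have no symbol. In all, 23 peaks had no gene model, among them the 19 without a symbol. Shares have Wilson, differences Newcombe, rates exact Poisson and medians order-statistic 95% intervals. No test over samples was possible, so no p-value is given. Per-gene numbers were scaled to the same total of peaks (all peaks per list), and called at 2-fold with at least 3 peaks over the pair. Software was Python 3.11.15, numpy 2.4.6, scipy 1.17.1, pandas 2.3.3 and matplotlib 3.10.9. The interval and call code was tested on simulated data.

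The members, gene lists and named-gene rule were chosen with earlier results of these data known. Named genes were the 12 with most last-exon peaks, the 5 with most in vector and wild-type at 0 in G325E, the 5 with most in G325E at 0 in both others, the 8 with a stop-codon peak in all lists, those taken from the study, and the 3 with most in each gene list. Genes on chromosome 8 get no sequence, and some genes and sequences that met these rules are not reported here. The limit of 8 peaks per gene, the 100 nt limits, the 5 segments, and the classes of GC content, exon number and coding share were set after the data were seen.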

Additional observations from a re-analysis of the deposited data

How the results depend on the processing

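No analysis paired over samples was possible because each construct had 1 library, and the intervals do not use pairing by gene. Of 139 values under other settings, 90 lay within the interval of the value given in the report (or within 1.5 times a count) and 49 moved. The 3 differences in last-exon share of exon-class peaks had intervals that include 0, and each turned sign under at least 1 setting below. The 751 genes common to the lists gave a last-exon share of exon-class peaks of 15.7% in the wild-type list and 19.3% in G325E, with differences of 3.58 points (G325E minus wild-type) and 1.42 points (G325E minus vector). With each exon counted once, the shares were 14.7% in vector, 14.0% in the wild-type list and 12.2% in G325E, and G325E minus wild-type was −1.81. With each gene weighted equally (added after seeing the data), the share was 13.1% in G325E, and the differences were −5.10 (G325E minus wild-type), −4.60 (G325E minus vector) and 0.497 (wild-type minus vector). Transcripts of at least 3 exons gave 15.6%, 15.1% and 14.7%. Peaks of at least 25 bp gave 20.6% in vector and 19.7% in wild-type. Of all peaks, last exons held 9.94%, 10.0% and 6.88% on the gene's strand, and 10.9%, 11.2% and 6.85% among peaks of at least 25 bp. The median distance to the stop codon in genes with a last-exon peak in all lists was 161, 168 and 193 nt, so the gap between G325E and the others narrowed. From the 5′ end of the peak it was 163.5 nt in vector and 179.5 nt in wild-type, and from the 3′ end 121 and 133 nt. The share over the stop codon stayed within its interval under all 3 alternatives in each list. None of these added peaks annotated to the 3′ UTR. The overlap of wild-type with vector was 49.5% for peaks of at least 25 bp. GC content in a window wider than 31 nt was 56.6%, 56.0% and 63.6%, and over the peak itself 59.0% in vector and 58.5% in wild-type. Genes higher in G325E than wild-type numbered 92 when scaled by exon-class peaks, 31 at 3-fold and 27 with at least 5 peaks over the pair. Genes lower in G325E than wild-type numbered 56 with at least 5 peaks and 411 with at least 1. Genes higher in G325E than vector numbered 33 and 88, and lower 27 and 212, with at least 5 and at least 1. Genes higher in wild-type than vector numbered 50 and 274, and those lower 28 when scaled by the median per-gene ratio and 30 at 3-fold. The cause of these changes was not tested, beyond the number of genes that each minimum admits. The percent of genes with 8 or more last-exon peaks in 1 list and none in another stayed within its interval with a minimum of 5 and on the gene's strand alone (both added after seeing the data). With 1 library per construct, a difference between constructs and a difference between libraries cannot be told apart. Without read depth at each site, an absent peak cannot be told from one under the cut-off.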

Other observations

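Tubulin genes share sequence, and their counts depend on where reads were placed. Over the first 900 nt of last-exon coding sequence, TUBA1A and TUBA1B were 96.7% identical and TUBA1B and TUBA1C 98.1%, against 84.4% for TUBB and TUBB4A and 85.4% for TUBB and TUBB2B. TUBA1C, named after its values were seen, had 0 last-exon peaks in vector, 9 in the wild-type list and 0 in G325E. RBMXL1 is a processed copy of RBMX, and its counts are uncertain in the same way.

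Stop codons of the genes with a last-exon peak were TGA in 46.0% in vector, 45.7% in the wild-type list and 48.2% in G325E. Among genes with a peak over the stop codon, TGA made up 46.5%, 46.0% and 52.2% (69 genes in G325E, 40.6 to 63.5), and TAA 30.3%, 28.3% and 21.7%. The intervals of the 3 lists overlapped for each stop codon.

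In last exons that hold the whole coding sequence, the first 20% of the coding sequence carried 21.3% of the peaks in vector (33 of 155), 14.0% in the wild-type list and 12.3% in G325E (16 of 130).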
